A study of Homo sapiens with 24 samples.

Results

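The mRNAs of 47 cell cycle and DNA replication genes were followed through all 24 libraries of the experiment, out of 58676 gene rows in the count files. The 47 genes were a list chosen by name, with earlier results of these data known. They were split into 21 S-phase genes, 23 mitosis genes and the 3 D-type cyclins. All 47 were among the 13136 genes that were tested, which had at least 1 CPM (the read count of a gene per 1e6 gene-assigned reads of its library) in at least 2 libraries. The cells were HepG2, an established human liver carcinoma line. They received either a control siRNA (siControl) or an siRNA against IGF2BP1, IGF2BP2 or IGF2BP3 (siIGF2BP1, siIGF2BP2 and siIGF2BP3), which are RNA-binding proteins of 1 family. RNA was collected at 0, 3 and 6 h of actinomycin D, which blocks transcription, so that loss of an mRNA could be followed with little new synthesis. Each of the 12 combinations of siRNA and time had 2 libraries, from 1 cell line and with 1 control siRNA. Every group was thus transfected, all 3 knockdowns were compared with the same siControl libraries, and p-values measure the spread between libraries only. The study calls its replicates independent, but whether they came from separate transfections is not stated in the labels.

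The cell cycle is run by waves of transcription and protein destruction. Before S phase, the origin recognition complex, CDC6 and CDT1 load the MCM2 to MCM7 helicase onto replication origins, and CDC45 and the GINS proteins then join it to unwind DNA for the polymerases. Before mitosis, cyclin B and CDK1, with the kinases PLK1, AURKA and AURKB, drive spindle assembly, and CDC20 and UBE2C then help the anaphase-promoting complex to destroy the cyclins. Promoters of S-phase genes often hold E2F sites, whereas promoters of mitosis genes often hold a CHR element (cell cycle genes homology region) together with CCAAT boxes. In bulk RNA such as this, a change in the share of cells in a phase and a change in mRNA per cell cannot be told apart.

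The libraries held 31843504 to 74252494 gene-assigned reads and 50889 to 119088 reads of the ERCC spike-in RNAs. Each siRNA target was lower in its own knockdown. IGF2BP1 lay at 113 to 134 CPM in the 6 siIGF2BP1 libraries and at 620 to 811 CPM in the other 18, IGF2BP2 at 43.4 to 51.1 against 169 to 241 CPM, and IGF2BP3 at 33.1 to 36 against 97.7 to 168 CPM, with no overlap in any of the 3. All 10 hepatocyte markers checked were expressed, with a summed level of 67400 to 100000 CPM per library. Of 10 markers of other cell types, 6 stayed below 1 CPM in every library, and most of the summed 96.7 to 140 CPM came from NES. Gene-assigned reads relative to ERCC reads fell to 68.3% ± 3.4 of the 0 h mean after 6 h in siControl, and to 77.3% ± 0.598, 75.9% ± 7.54 and 78.3% ± 3.41 in siIGF2BP1, siIGF2BP2 and siIGF2BP3 (SD, n = 2). The 2 siControl libraries at 0 h differed most in this ratio, with an SD of 9.43 percentage points, and results that rest on them are given below with 1 of them left out.

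Per kilobase of exon, the members differed widely in their level in siControl at 0 h. On the RPKM scale, which divides the CPM by exon length, PCNA, the sliding clamp of the replication fork, was highest at 225, followed by MCM3 at 120, the topoisomerase TOP2A at 97.2, the spindle assembly factor TPX2 at 96.6 and TYMS, which makes thymidylate, at 88.8. The median was 18.8 RPKM for the S-phase members and 24.3 RPKM for the mitosis members. The lowest S-phase member was CCNE2 at 1.53 RPKM, and the lowest mitosis member was TTK, a spindle checkpoint kinase, at 4.08 RPKM. The D-type cyclins were far apart, with CCND1 at 58.3 RPKM, CCND3 at 1.66 RPKM and CCND2 at 0.265 RPKM.

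The S-phase and mitosis members differed in the letters of their promoters. Promoter sequences from RefSeq (GRCh38.p14), each running from 250 bases before to 50 bases after the start of transcription, were matched for 37 of the 47 members and were not for AURKA, CCND1, CCND2, CCNE2, FOXM1, MCM4, MCM5, TPX2, TTK and UBE2C. Both strands were searched for 3 motifs: the E2F words TTTGGCGC, TTTCCCGC, TTTGCCGC and TTTCGCGC, the CHR word TTTGAA and the word CCAAT. None of these words holds another. An E2F word was found for 12 of 18 S-phase members (66.7%), for 1 of 18 mitosis members (5.56%) and for 3.99% of all 27305 genes with a promoter entry. The CHR word was found for 1 of 18 S-phase members, for 11 of 18 mitosis members (61.1%) and for 18.2% of all genes. CCAAT was found for 14 of 18 S-phase members (77.8%), for 16 of 18 mitosis members (88.9%) and for 39.7% of all genes. Such matches are a description of the letters in this window. The bases before the start that lie outside the annotated gene are shown for the 2 S-phase members lost fastest (CDC25A and CDT1) and for 2 mitosis members higher in every knockdown (CDC20 and CCNB1), 5′ to 3′ on the strand of the gene, with every motif in capitals.
CDC25A: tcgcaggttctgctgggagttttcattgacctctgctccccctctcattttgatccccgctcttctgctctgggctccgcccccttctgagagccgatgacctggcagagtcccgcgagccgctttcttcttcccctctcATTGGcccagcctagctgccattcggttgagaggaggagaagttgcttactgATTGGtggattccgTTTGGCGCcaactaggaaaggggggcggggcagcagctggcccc
CDT1: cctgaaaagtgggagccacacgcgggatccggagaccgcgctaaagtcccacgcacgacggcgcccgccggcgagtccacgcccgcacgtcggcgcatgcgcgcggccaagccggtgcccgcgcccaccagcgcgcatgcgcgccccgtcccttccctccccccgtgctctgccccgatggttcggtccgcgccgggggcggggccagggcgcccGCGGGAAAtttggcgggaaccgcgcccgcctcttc
CDC20: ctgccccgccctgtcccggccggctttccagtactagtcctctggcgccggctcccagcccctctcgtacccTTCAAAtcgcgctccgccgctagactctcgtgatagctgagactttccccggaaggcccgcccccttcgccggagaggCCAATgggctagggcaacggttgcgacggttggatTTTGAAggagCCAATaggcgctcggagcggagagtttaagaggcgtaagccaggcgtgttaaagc
CCNB1: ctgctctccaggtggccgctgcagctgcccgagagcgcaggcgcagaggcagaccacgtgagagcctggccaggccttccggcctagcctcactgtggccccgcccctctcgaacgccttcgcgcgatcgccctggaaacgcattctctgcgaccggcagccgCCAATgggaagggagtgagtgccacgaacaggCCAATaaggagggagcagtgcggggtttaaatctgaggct
The CDC25A stretch (chr3:48188418-48188667, minus strand) held 1 E2F word and 2 CCAAT words. The CDT1 stretch (chr16:88803539-88803788, plus strand) held 1 E2F word. The CDC20 stretch (chr1:43358731-43358980, plus strand) held 2 CHR words and 2 CCAAT words. The CCNB1 stretch (chr5:69166900-69167134, plus strand) held 2 CCAAT words.

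The first question was whether loss of each IGF2BP protein changed the abundance of these mRNAs before transcription was blocked. Levels were compared at 0 h as CPM scaled by the trimmed mean of M-values (TMM), which sets each gene against the bulk of other genes, with edgeR's quasi-likelihood test and Benjamini-Hochberg adjustment over all 13136 genes (threshold 0.05). Log2 differences were small except for the lowly expressed CCND2, at −0.57, −0.51 and −0.97 after siIGF2BP1, siIGF2BP2 and siIGF2BP3. More mitosis members were higher after siIGF2BP3 than members of any class in the other comparisons. In siIGF2BP3, 17 of 23 mitosis members and 7 of 21 S-phase members were higher, where 4.93% of all genes tested were higher and 4.47% were lower. In siIGF2BP1, 7 mitosis members and no S-phase member were higher, against 9.43% of all genes higher and 6.5% lower. Without passing that adjusted threshold, 5 S-phase members had an unadjusted p under 0.05 in siIGF2BP1, in both directions. MCM5, MCM10 and CDT1 had differences of 0.09, 0.17 and 0.14, and CDC45 and POLA1 of −0.12 and −0.13. The share of all genes at that unadjusted threshold is not given here. DESeq2 called 1 S-phase member higher, against 10.7% of all genes. In siIGF2BP2, 6 mitosis members and 3 S-phase members were higher and the S-phase gene CDC6 was lower, against 6.65% higher and 5.47% lower. The mitosis members had a median log2 difference of 0.08, 0.11 and 0.22 after siIGF2BP1, siIGF2BP2 and siIGF2BP3, respectively. For the S-phase members it was 0.04, 0.06 and 0.11, and over all genes tested it was 0.01, 0.02 and 0.00.

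**Figure D1:**
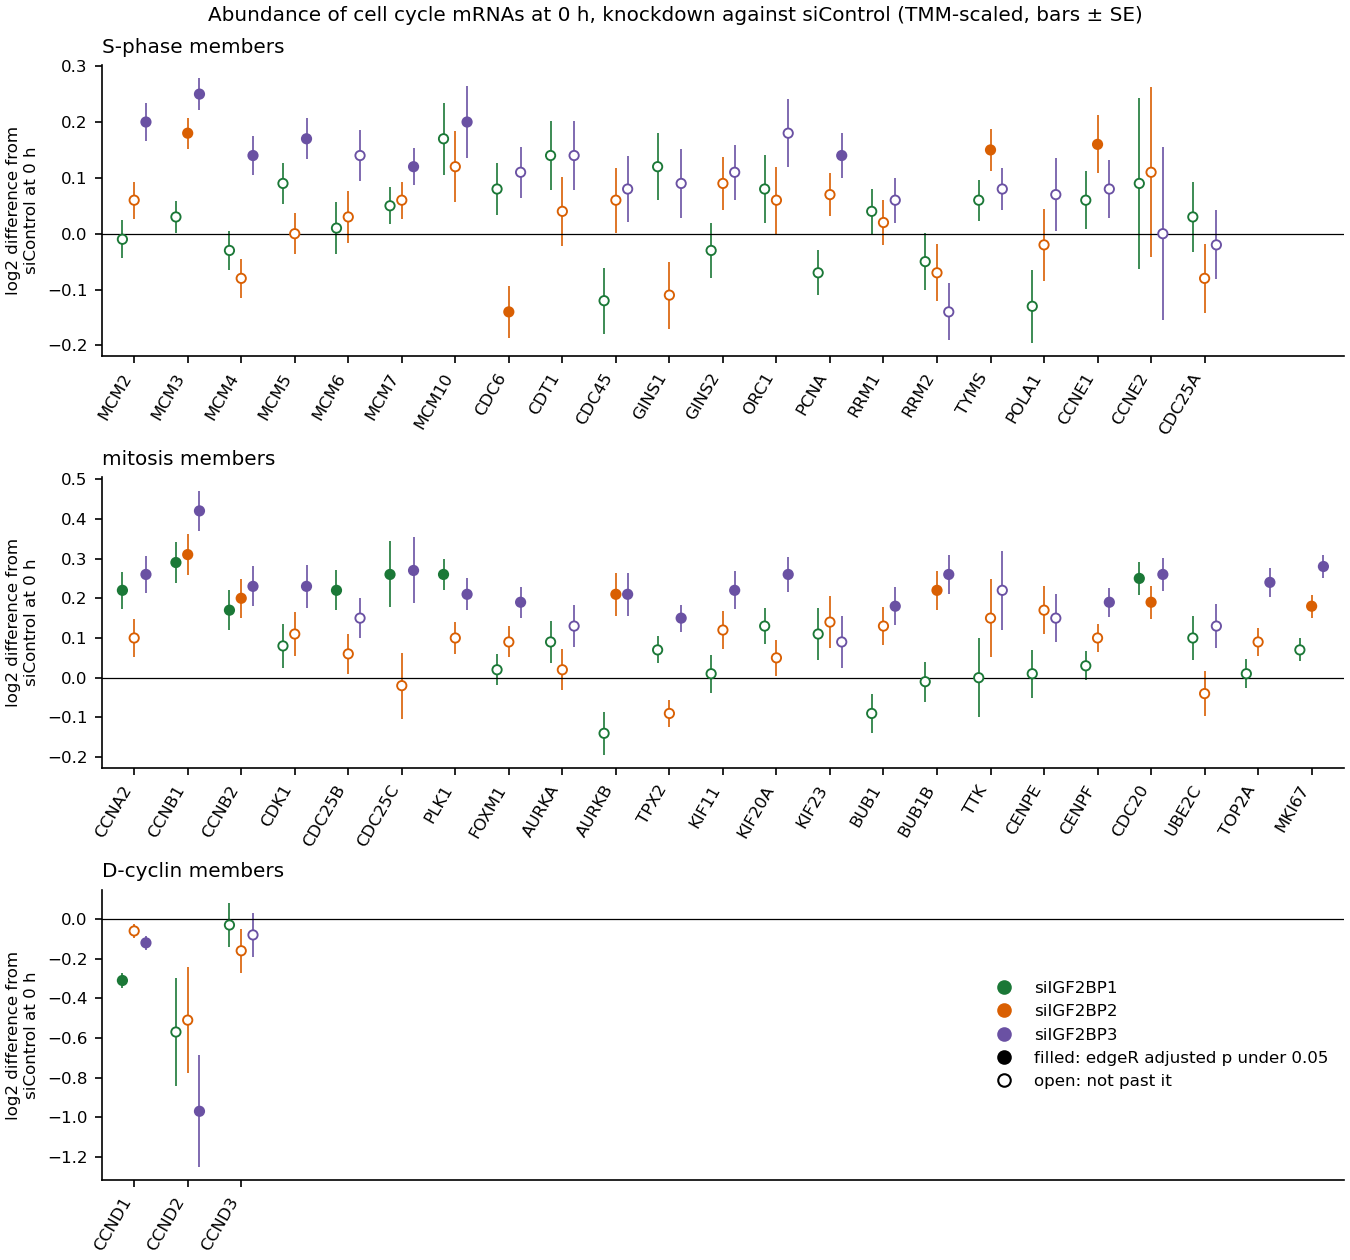
Log2 difference from siControl at 0 h for each member (TMM-scaled, edgeR estimate, bars ± SE) in the 3 knockdowns, in separate panels for S-phase, mitosis and D-type cyclin members, with filled points past an adjusted p of 0.05. All 23 mitosis points of siIGF2BP3 lie above 0, between 0.09 and 0.42, and the D-type cyclins lie below 0.

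Among the helicase genes, MCM3 and MCM2 carried the strongest S-phase differences. MCM3 (ENSG00000112118.18, chr6:52264014-52284881, GRCh38) was at 430 and 447 CPM in siControl, 448 and 448 in siIGF2BP1, 501 and 495 in siIGF2BP2 and 524 and 522 in siIGF2BP3. The siIGF2BP2 and siIGF2BP3 libraries lay above both siControl libraries, and the siIGF2BP1 libraries lay just above them. The log2 difference was 0.18 ± 0.028 (SE) in siIGF2BP2 (edgeR adjusted p = 8e-06) and 0.25 ± 0.028 in siIGF2BP3 (adjusted p = 3.73e-08), whereas it was 0.03 ± 0.028 in siIGF2BP1 (adjusted p = 0.533). MCM2 was at 187 and 191 CPM in siControl and at 214 and 221 CPM in siIGF2BP3, without overlap, a difference of 0.20 ± 0.034 (edgeR adjusted p = 5.49e-05). Its siIGF2BP1 libraries, both at 188 CPM, lay within the siControl range, and its siIGF2BP2 libraries were at 202 and 191 CPM. MCM4, MCM5 and MCM7 were also higher in siIGF2BP3, by 0.14, 0.17 and 0.12 on the log2 scale, and so was the helicase activator MCM10, by 0.20 from 56.4 and 62.2 CPM to 67.4 and 69.0 CPM. The MCM7 libraries went from 239 and 245 CPM to 264 and 264 CPM. The calls of MCM4, MCM5, MCM7 and MCM10 were lost without siControl replicate 1 at 0 h, and with ERCC scaling. Without that library the difference was 0.11 for MCM7 and 0.13 for MCM10. These 2 calls were also lost without either siIGF2BP3 library, and that of MCM10 with library-size scaling or CPM of at least 5. MCM6, the remaining subunit of the ring, had a difference of 0.14 that did not pass (edgeR adjusted p = 0.0529). Among the genes of DNA synthesis, PCNA was higher in siIGF2BP3 by 0.14 ± 0.04 (edgeR adjusted p = 0.0194). The PCNA call was likewise lost without siControl replicate 1 at 0 h, and with ERCC scaling.

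TYMS and CCNE1 passed in siIGF2BP2. TYMS was at 213 and 217 CPM in siControl and at 248 and 228 CPM in siIGF2BP2, which did not overlap (log2 difference 0.15 ± 0.037, edgeR adjusted p = 0.00484). Exons of ENOSF1 and of an antisense RNA on the opposite strand cover 47.9% of the TYMS exon bases, and although the libraries were stranded, the strand option of the counting is not given in the sources used here, so it is not known whether reads of both strands were kept apart. The TYMS difference was 0.07 without siIGF2BP2 replicate 1 at 0 h (edgeR adjusted p = 0.405). CCNE1, a cyclin of the G1 to S transition, was at 50.5 and 49.0 CPM in siControl and at 54.9 and 56.1 CPM in siIGF2BP2 (0.16 ± 0.052, edgeR adjusted p = 0.0371). CDC6, which loads the helicase, went the other way in siIGF2BP2, from 128 and 132 CPM to 119 and 116 CPM (−0.14 ± 0.046, edgeR adjusted p = 0.0349). The S-phase count in siIGF2BP3 was lower without siControl replicate 1 or without siIGF2BP3 replicate 2 at 0 h. In siIGF2BP2 it was lower without siControl replicate 1 or without siIGF2BP2 replicate 1 at 0 h. Fewer of all genes were also called higher in these fits, which leave 1 library in a group. The CCNE1 and CDC6 calls were both lost without any 1 of the 4 libraries compared, and with ERCC scaling.

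Among the mitosis members, CCNB2, CDC20 and CCNB1 were higher in all 3 knockdowns, and the share of all genes that were is not given here. CCNB1 (ENSG00000134057.14, chr5:69167135-69178245, GRCh38) encodes cyclin B1, the partner of CDK1 at mitotic entry. It was at 158 and 159 CPM in siControl, 198 and 189 in siIGF2BP1, 199 and 194 in siIGF2BP2 and 199 and 226 in siIGF2BP3, and all 6 knockdown libraries lay above both controls. The log2 differences were 0.29 ± 0.051 (edgeR adjusted p = 5.93e-05), 0.31 ± 0.051 (2.39e-05) and 0.42 ± 0.051 (1.98e-07), respectively. CDC20 (ENSG00000117399.13, chr1:43358981-43363203), which activates the anaphase-promoting complex, was at 78.6 and 81.9 CPM in siControl. It was at 94.3 and 97.0 CPM in siIGF2BP1, 90.2 and 92.4 in siIGF2BP2 and 95.2 and 97.8 in siIGF2BP3, again with no overlap. Its differences were 0.25 ± 0.041, 0.19 ± 0.041 and 0.26 ± 0.041 (edgeR adjusted p = 1.74e-05, 0.00146 and 1.72e-05). In siIGF2BP2 the CDC20 call was lost without siControl replicate 1 or without siIGF2BP2 replicate 2 (edgeR adjusted p = 0.0582 and 0.0542). The comparisons share the siControl libraries, and so do not count as 3 separate measurements of a rise.

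Other mitosis members passed in some knockdowns. MKI67, the proliferation marker Ki-67 that coats mitotic chromosomes, was at 632 and 641 CPM in siControl, 688 and 649 in siIGF2BP1, 726 and 717 in siIGF2BP2 and 773 and 776 in siIGF2BP3. Its rise was 0.18 ± 0.029 in siIGF2BP2 (edgeR adjusted p = 1.84e-05) and 0.28 ± 0.029 for siIGF2BP3 (6.07e-09), and its siIGF2BP1 difference of 0.07 had an adjusted p of 0.0972. PLK1, a kinase of mitotic entry and spindle assembly, was at 243 and 242 CPM in siControl, 292 and 291 in siIGF2BP1, 259 and 260 in siIGF2BP2 and 281 and 281 in siIGF2BP3. These levels did not overlap with the controls, and the call was made in siIGF2BP1 (0.26 ± 0.04, edgeR adjusted p = 4.18e-06) and siIGF2BP3 (0.21 ± 0.04, 0.000282). Exons of other genes cover 12.8% of the PLK1 exon bases on the opposite strand, with the same uncertainty. CCNA2, the cyclin of S phase and G2, and the CDK1-activating phosphatase CDC25C also passed in siIGF2BP1 and siIGF2BP3, and CDC25B, another such phosphatase, passed in siIGF2BP1 with 0.22 ± 0.05 (edgeR adjusted p = 0.00114). AURKB, the kinase of the chromosomal passenger complex, and BUB1B, a spindle checkpoint protein, passed in siIGF2BP2 and siIGF2BP3, by 0.21 and 0.21 and by 0.22 and 0.26. TOP2A, the motors KIF11 and KIF20A, FOXM1, TPX2, CDK1, BUB1 and CENPF passed in siIGF2BP3, with differences of 0.15 to 0.26. AURKA, KIF23, TTK, CENPE and UBE2C passed in none of the 3. The mitosis counts were lower in all 3 knockdowns when any 1 of the 4 libraries compared was left out. Fewer of all genes were then called higher too.

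**Figure D2:**
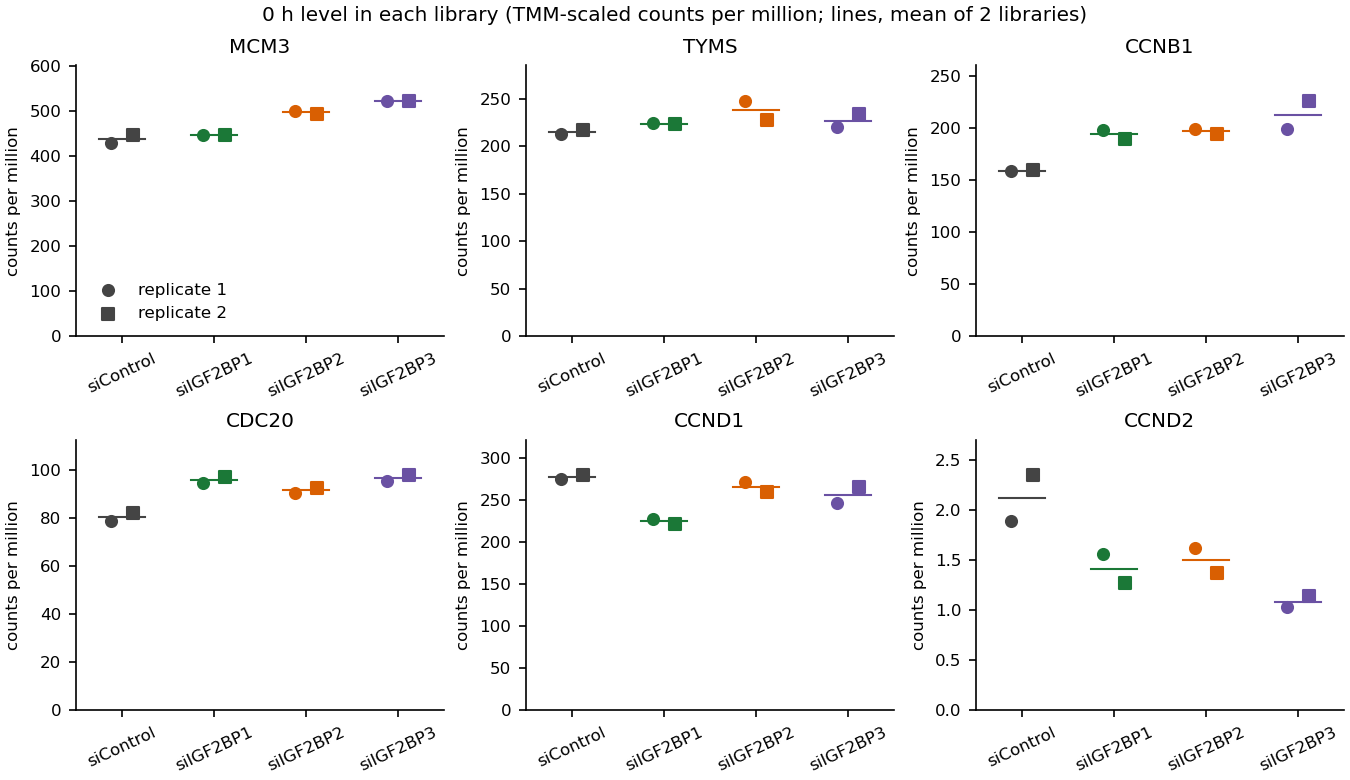
TMM-scaled CPM of 6 members in each of the 8 libraries at 0 h, by siRNA, from an axis that starts at 0, with circles for replicate 1, squares for replicate 2 and lines at the mean. CCNB1 and CDC20 lie above both siControl libraries in all 6 knockdown libraries, whereas CCND1 lies below them in siIGF2BP1 at 228 and 221 CPM.

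The D-type cyclins, which bind CDK4 and CDK6 in G1 in response to growth signals, were lower where they differed. CCND1 (ENSG00000110092.3, chr11:69641156-69654474) was at 275 and 280 CPM in siControl and at 228 and 221 CPM in siIGF2BP1, without overlap (log2 difference −0.31 ± 0.036, edgeR adjusted p = 2.86e-08). In siIGF2BP2 it was at 272 and 260 CPM (−0.06 ± 0.035, adjusted p = 0.321), and in siIGF2BP3 at 246 and 265 CPM (−0.12 ± 0.036, adjusted p = 0.0219). The siIGF2BP3 call was lost without siControl replicate 1, without siControl replicate 2 or without siIGF2BP3 replicate 1, and with ERCC scaling, where the difference was −0.04 (edgeR adjusted p = 0.862). CCND2, a lowly expressed member with 21 to 196 reads per library, was at 1.89 and 2.35 CPM in siControl and at 1.03 and 1.14 CPM in siIGF2BP3 (−0.97 ± 0.282, edgeR adjusted p = 0.0211). That call was lost without siControl replicate 2 or without either siIGF2BP3 library. It was also lost with ERCC scaling (−0.88, edgeR adjusted p = 0.125) and with no filter on low counts (−0.98, edgeR adjusted p = 0.0512). At 1.56 and 1.27 CPM in siIGF2BP1 and 1.62 and 1.37 CPM in siIGF2BP2, CCND2 lay below both controls but did not pass. CCND3 was at 8.57 and 10.6 CPM in siControl and at 8.48 to 9.53 CPM in the 6 knockdown libraries, which overlapped with it in all 3 comparisons. The background for lower calls was 6.5% of genes in siIGF2BP1 and 4.47% in siIGF2BP3.

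The knockdowns were also set against each other at 0 h, since a call in 1 and none in another does not show a difference between them. Against siIGF2BP3, no member was higher in siIGF2BP1 and 15 were lower, where 8.31% of all genes were higher and 6.0% were lower. MCM3 (−0.22 ± 0.029, edgeR adjusted p = 3.23e-07), MKI67 (−0.21 ± 0.029, 1.37e-06) and TOP2A (−0.24 ± 0.036, 6.05e-06) led these 15, which were 6 S-phase members, 8 mitosis members and CCND1. Against siIGF2BP3, no member was higher in siIGF2BP2 and 11 were lower, where 4.91% of all genes were higher and 4.28% were lower, led by TPX2 (−0.24 ± 0.034, edgeR adjusted p = 2.14e-06) and MCM4 (−0.23 ± 0.035, 1.09e-05). Without siIGF2BP3 replicate 2 at 0 h, fewer members and fewer of all genes were lower. With ERCC scaling 0 members were lower, where 1.45% of all genes were. Between siIGF2BP1 and siIGF2BP2 the members went both ways, with 6 higher and 8 lower in siIGF2BP1 against 9.65% and 9.04% of all genes. With ERCC scaling 0 were higher and 8 lower, against 1.81% and 10.3% of all genes. AURKB was lower in siIGF2BP1 than in siIGF2BP2 by 0.35 on the log2 scale (SE 0.055, edgeR adjusted p = 5.21e-06), and CDC6 was higher by 0.22 (SE 0.046, adjusted p = 0.000439). The 3 comparisons share libraries in pairs.

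Averaging the log2 difference over 0, 3 and 6 h, with 6 libraries on each side, gave more calls for members and for all genes alike. In siIGF2BP3, 21 of 23 mitosis members and 13 of 21 S-phase members were higher and 3 members were lower, against 16.2% and 16.0% of all genes. CCNB1 was again the mitosis member with the largest difference, at 0.53, and MCM3 the S-phase member, at 0.32. RRM2, the regulated subunit of ribonucleotide reductase, was lower by 0.19 on the log2 scale, with CCND1 and CCND2. In siIGF2BP1, 14 mitosis members and 8 S-phase members were higher and 8 members were lower, against 21.2% and 18.5%. The largest were CCNB1 at 0.44 and PLK1 at 0.38, and CCND1 and CCND2 were lowest at −0.45 and −0.87. In siIGF2BP2, 15 mitosis members and 7 S-phase members were higher and 9 members were lower, against 17.1% and 16.7%, with CCNB1 at 0.39, BUB1B at 0.34, the GINS subunit GINS1 at −0.24 and CCND2 lowest at −0.50. Transfected plates were split into plates for the 3 times, so libraries of different times may share a transfection, and the 6 are then not separate samples.

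Scaled to the ERCC reads instead, which were added in proportion to total RNA, all genes at 0 h had a median log2 difference of −0.02, 0.10 and 0.09 after siIGF2BP1, siIGF2BP2 and siIGF2BP3. On that scale the mitosis members had medians of 0.05, 0.19 and 0.30, and 1, 6 and 15 of them were higher, against 1.93%, 4.29% and 2.95% of all genes. The siIGF2BP1 calls of PLK1, CDC20 and CDC25B were among those lost, with differences of 0.23, 0.22 and 0.19 that stayed close to the TMM values (edgeR adjusted p = 0.0841, 0.135 and 0.291). The siIGF2BP2 call of TYMS was lost with a difference of 0.23 (adjusted p = 0.0777). The S-phase members had medians of 0.01, 0.14 and 0.19, and 0, 1 and 2 of them were higher. Averaged over times, all genes had a median of 0.06, 0.15 and 0.18 on the ERCC scale, the mitosis members of 0.16, 0.24 and 0.43, and the S-phase members of 0.09, 0.16 and 0.31.

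Genes of the same processes that were not among the 47 were counted from 3 lists, also chosen with earlier results of these data known. Of 44 other S-phase genes, 3 were higher and 5 lower at 0 h in siIGF2BP1, 5 higher and 1 lower in siIGF2BP2, and 9 higher and 0 lower in siIGF2BP3. The shares higher were 6.82%, 11.4% and 20.5%, against 9.43%, 6.65% and 4.93% of all genes. Of 44 other mitosis genes, 5, 10 and 15 were higher (11.4%, 22.7% and 34.1%) and 0 were lower. Their median log2 differences in siIGF2BP3 were 0.12 and 0.13, beside 0.11 for the S-phase members and 0.22 for the mitosis members. The largest called rises in the S-phase list were GMNN, an inhibitor of CDT1, in siIGF2BP1 (0.16 ± 0.045, edgeR adjusted p = 0.0132), the repressor E2F7 in siIGF2BP2 (0.30 ± 0.078, 0.00626) and DUT, which hydrolyses dUTP, in siIGF2BP3 (0.25 ± 0.05, 0.000538). RFC1, the large subunit of the clamp loader, had the largest fall in siIGF2BP2 (−0.39 ± 0.043, 1.41e-08). In the mitosis list the largest rises were WEE1, the kinase that holds CDK1 inactive, in siIGF2BP1 (0.42 ± 0.071, 3.38e-05), CEP55 in siIGF2BP2 (0.26 ± 0.068, 0.00702) and BIRC5, encoding survivin, in siIGF2BP3 (0.34 ± 0.034, 1.81e-09). Of 20 G1 regulators, 19 were tested, and in each knockdown 2 were higher (10.5%) and 3 lower (15.8%), against 6.5%, 5.47% and 4.47% of all genes lower. The largest rise was LIN54, a DNA-binding subunit of the DREAM complex, in all 3, by 0.24, 0.29 and 0.34. The siControl slope, described below, fell for 40 of the 44 other S-phase genes, 42 of the 44 other mitosis genes and 17 of the 19 G1 regulators. These shares of 90.9%, 95.5% and 89.5% stand beside 80.3% of all genes. The largest falls at 0 h were the CDK inhibitor genes CDKN1A in siIGF2BP1 (−0.29 ± 0.078, 0.00622) and CDKN2B in siIGF2BP2 (−0.66 ± 0.191, 0.0177) and siIGF2BP3 (−0.94 ± 0.197, 0.000971).

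The second question was how fast the members were lost once transcription was blocked. Reads were scaled to the ERCC total, and a slope over 6 h was fitted per gene and condition with edgeR, given here as the log2 change over 6 h. In siControl, 46 of 47 members fell, against 80.3% of all genes: 20 of 21 S-phase members, all 23 mitosis members and all 3 D-type cyclins. The median change was −0.62 for the S-phase members, −1.25 for the mitosis members and −0.47 for the D-type cyclins, and −0.88 over all genes tested. The S-phase members ran from −0.05 to −3.0 and the mitosis members from −0.45 to −3.33. As a check of the time course, all 12 mRNAs of a list of short-lived transcripts fell, and the 11 with a value had a median half-lifetime of 1.01 h. The members' directions depended on the scale: set against other genes by TMM, 12 S-phase members rose and 6 fell, and 2 mitosis members rose and 15 fell, where 36.3% of all genes rose and 38.7% fell.

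**Figure D3:**
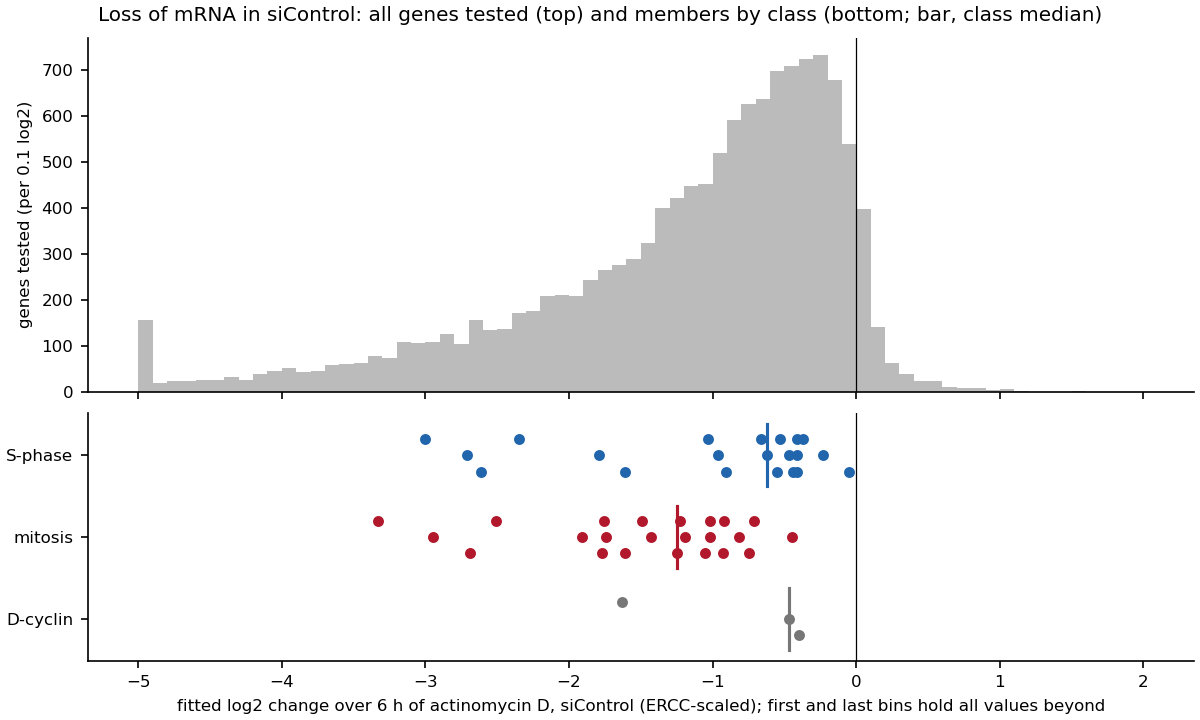
Fitted log2 change over 6 h of actinomycin D in siControl (ERCC-scaled), as a histogram of all 13136 genes tested (top, 0.1 log2 per bin, the outermost bins holding values beyond) and as points per member in each class (bottom, bar at the class median). The mitosis members centre on −1.25, to the left of the S-phase median of −0.62.

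The fastest S-phase losses were of CDC25A, a phosphatase that activates CDK2, of the helicase-loading genes CDT1 and CDC6 and of the helicase activator MCM10. CDC25A stood at 40.3% and 42.0% of its 0 h mean after 3 h in siControl and at 12.9% and 12% after 6 h (log2 change −3.0 ± 0.138, edgeR adjusted p = 2.2e-14). CDT1 stood at 42.4% and 39.0% after 3 h and at 16.6% and 14.0% after 6 h, and MCM10 at 44.4% and 46.6% and then at 17.5% and 15.1%. All the 3 h and 6 h libraries of these genes lay below both 0 h libraries and did not overlap with each other. CDC6, CCNE2 and ORC1 came next, with log2 changes of −2.35, −1.79 and −1.61. At the slow end was RRM1, the large subunit of ribonucleotide reductase, at 99.9% and 97.3% after 3 h and 86.1% and 84.0% after 6 h (−0.23 ± 0.085, edgeR adjusted p = 0.0156). Its fall no longer passed without siControl replicate 1 at 0 h or without either 6 h library. MCM7 stood at 97.3% in both 3 h libraries and at 81.1% and 73.5% after 6 h, and MCM2 at 93.9% and 93.0% and then at 80.0% and 70.6%. TYMS was the member with no detectable fall, at 106% and 106% after 3 h and at 99.2% and 94.5% after 6 h, against 106% and 94.4% at 0 h (−0.05 ± 0.079, edgeR adjusted p = 0.602). The MCM genes thus held both ends, MCM10 among the fastest and MCM2 and MCM7 among the slowest.

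Among the mitosis members AURKA, the kinase of spindle poles, was lost fastest. It stood at 29.5% and 26.9% of the 0 h mean after 3 h and at 9.92% and 10.1% after 6 h (−3.33 ± 0.174, edgeR adjusted p = 1.72e-13). TTK stood at 34.1% and 37.5% and then at 11.9% and 14.0%, and KIF23, a motor of the central spindle, at 41.9% and 42.5% and then at 18.7% and 16.3%. In none of the 3 did a treated library overlap with a 0 h library. PLK1 was at 49.7% and 50.4% after 3 h and 17.0% and 13.9% after 6 h (−2.69 ± 0.178). The slowest was FOXM1, a transcription factor of mitosis genes, at 91.9% and 96.4% after 3 h and 76.1% and 69.9% after 6 h (−0.45 ± 0.085, edgeR adjusted p = 4.84e-05). CDC25B was at 83.4% and 89.0% and then at 62.0% and 57.1%, and TOP2A at 80.6% and 80.7% and then at 61.6% and 60.9%. CCNB1, the member that rose most at 0 h, was at 64.4% and 62.6% after 3 h and at 31.3% and 28.4% after 6 h. Of the D-type cyclins, CCND2 fell most, to 36.4% and 28.2% after 6 h, while CCND1 was at 79.4% and 71.8% and CCND3 at 76.2% and 68.7%.

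The time course was also split at 3 h in siControl. From 0 to 3 h, 10 of 21 S-phase members fell, 22 of 23 mitosis members and all 3 D-type cyclins, against 61.3% of all genes. From 3 to 6 h, 20 S-phase members, all 23 mitosis members and 1 D-type cyclin fell, against 64.9% of all genes. The S-phase members MCM2, MCM4, MCM5, MCM6, MCM7, CDC45, GINS2, RRM1, RRM2 and POLA1 and the mitosis member FOXM1 passed in the later interval and not in the earlier one. Each interval takes in the 3 h libraries, and the difference between them was not tested. MCM5, for example, changed by −0.12 from 0 to 3 h and by −0.42 from 3 to 6 h, and MCM4 by −0.16 and −0.50.

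Half-lifetimes were computed for the members with a measurable loss as the natural log of 2 over the mean of the 2 decay rates, from 0 to 3 h and from 0 to 6 h. In siControl the median was 11.6 h over 20 S-phase members, 4.49 h over 23 mitosis members and 6.22 h over all 11038 genes with a value. Within the mitosis class, all 5 kinetochore and checkpoint genes (BUB1, BUB1B, TTK, CENPE and CENPF) were shorter than the median of all genes, as were 16 of the 23 in all. In the S-phase class 6 of 21 were. The shortest S-phase values were 2.16 h for CDC25A, 2.26 h for CDT1 and 2.45 h for MCM10, and the longest were 43.7 h for RRM1, 26.7 h for MCM7 and 19.9 h for MCM2. The long values are poorly determined in a time course of 6 h. Leaving out 1 siControl library moved RRM1 between 26.6 and 132 h and MCM7 between 18 and 54.1 h, but CDC25A only between 2.08 and 2.24 h. The shortest mitosis values were 1.72 h for AURKA, 2.03 h for TTK and 2.40 h for KIF23, and the longest were 19.1 h for FOXM1, 10.2 h for CDC25B and 9.04 h for TOP2A. The median of S-phase members was 10.4 h from the libraries numbered 1 alone and 13.5 h from those numbered 2, and that of mitosis members 4.23 and 4.93 h. Without siControl replicate 1 at 0 h the medians were 16.1 and 5.00 h.

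**Figure D4:**
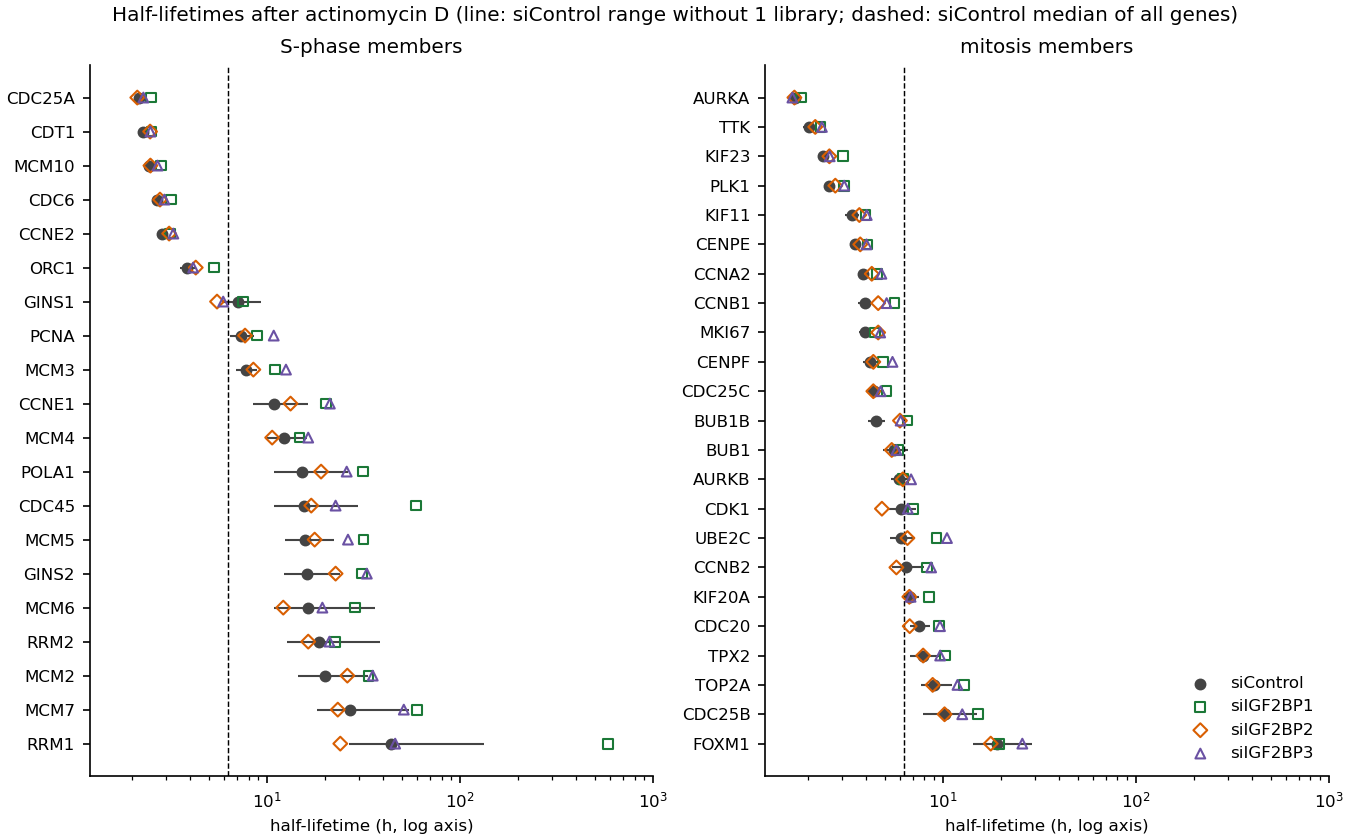
Half-lifetime in hours (log axis) of the 20 S-phase and 23 mitosis members with a value, in siControl (filled circles, line for the range without 1 library) and the 3 knockdowns (open symbols), ordered by the siControl value, with the siControl median of all genes dashed at 6.22 h. The S-phase members run from 2.16 to 43.7 h in siControl, and the lines widen as the values lengthen.

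The third question was whether a knockdown changed the rate of loss. Falling members in siIGF2BP1 numbered 42, against 69.1% of all genes, in siIGF2BP2 43, against 71.3%, and in siIGF2BP3 40, against 67.2%. All 23 mitosis members fell in every condition, and 16, 18 and 14 S-phase members fell. The test of the difference in slope from siControl passed for no member in any knockdown with edgeR, where 0.0152%, 0.0% and 0.0228% of all genes passed. Unadjusted p-values lay under 0.05 for 14, 5 and 18 members. The share of all genes at that threshold is not given here, so these counts do not set the members apart from other genes. DESeq2 on the same ERCC scale called no member. Among members the adjusted p went no lower than 0.423, 0.643 and 0.277. The fitted differences were mostly positive, meaning a smaller loss than in siControl, with medians of 0.22, 0.19 and 0.28 for the S-phase members and 0.22, 0.20 and 0.27 for the mitosis members. Over all genes the medians were 0.19, 0.17 and 0.22. These differences share 1 set of siControl libraries, whose 2 libraries at 0 h had the widest gap in the ratio of gene reads to ERCC reads. In siIGF2BP3 the median over all genes was 0.137 without siControl replicate 1 at 0 h and 0.298 without replicate 2. Without siControl replicate 2 at 0 h, 8 members passed in siIGF2BP3 (MCM3, MCM5, PCNA, CCNE1, CCNA2, CCNB1, KIF11 and UBE2C), with differences of 0.41 to 0.63, where 4.14% of all genes passed.

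Single members are given as examples. CCNB1 stood at 45.5% and 39.5% of its 0 h mean after 6 h in siIGF2BP1, 34.3% and 41.6% in siIGF2BP2 and 40.9% and 43.4% in siIGF2BP3, all above the 31.3% and 28.4% of siControl. The difference in slope was 0.51 ± 0.17 in siIGF2BP1 (edgeR adjusted p = 0.423), 0.35 ± 0.169 in siIGF2BP2 (0.643) and 0.50 ± 0.169 in siIGF2BP3 (0.277). When the change from 0 to 6 h was compared without the 3 h libraries, CCNB1 and PLK1 passed in siIGF2BP1, and CCNA2, CCNB1, PLK1 and CENPF passed in siIGF2BP3, where 0.655% and 1.48% of all genes passed. MCM3 stood at 63.9% and 62.0%, 56.8% and 65.3%, and 68.5% and 65.8% after 6 h in the same order, against 54.0% and 48.9% in siControl (slope difference in siIGF2BP3 0.38 ± 0.125, edgeR adjusted p = 0.277). For AURKA, with 12.9% and 11.2%, 11.3% and 12.2%, and 9.90% and 10.3%, siIGF2BP3 lay around the siControl values of 9.92% and 10.1% and the other knockdowns above them. The median half-lifetime of the mitosis members was 5.88, 4.83 and 5.74 h in siIGF2BP1, siIGF2BP2 and siIGF2BP3, and that of the S-phase members 17.5, 11.4 and 17.8 h. Over all genes with a value it was 6.91, 6.51 and 6.98 h. The value was longer than in siControl for 20 of 20 S-phase and 23 of 23 mitosis members in siIGF2BP1, 13 of 20 and 13 of 23 in siIGF2BP2, and 19 of 20 and 22 of 23 in siIGF2BP3. It was also longer for 8332 of 10216, 6742 of 10744 and 8566 of 10116 of all genes with both values. The RRM1 value in siIGF2BP1, 581 h, stands for a loss too small to measure in 6 h.

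**Figure D5:**
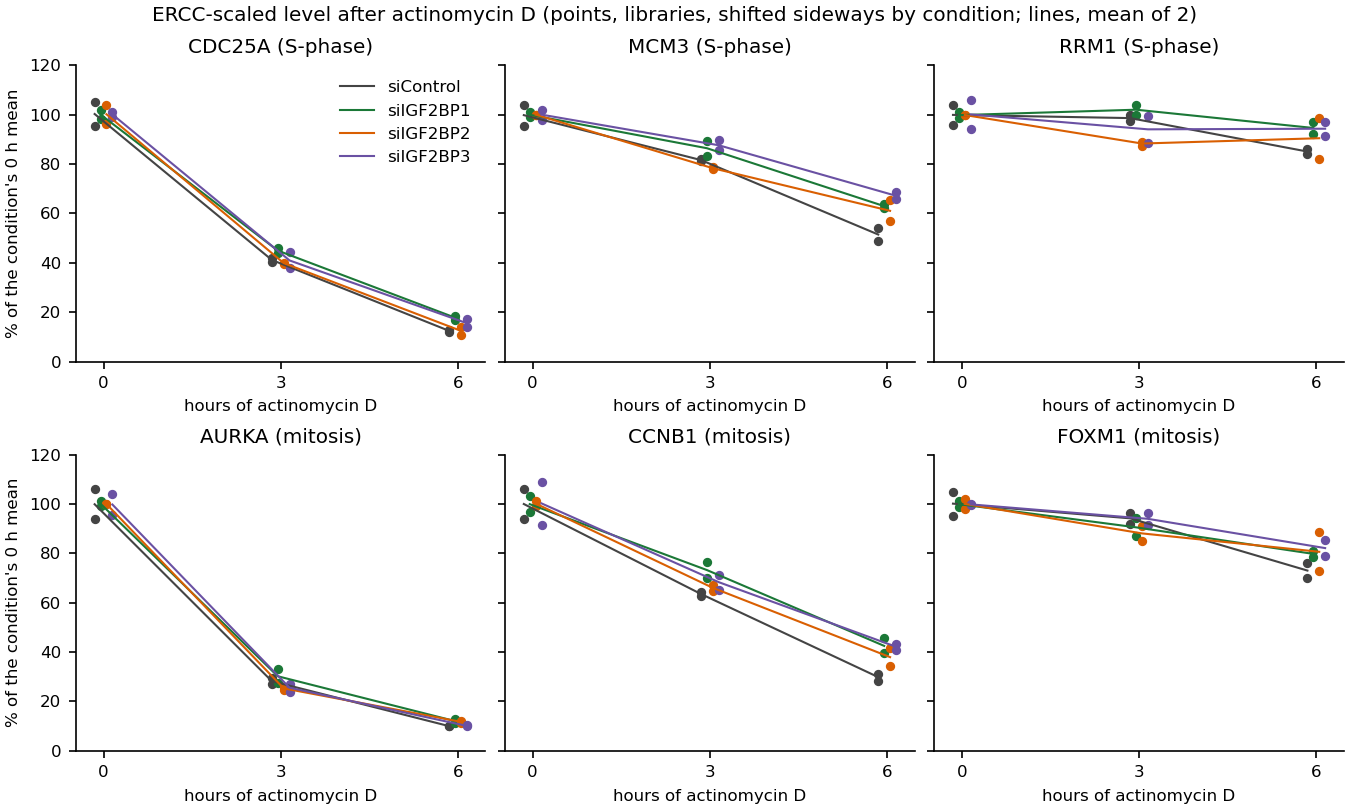
ERCC-scaled level of 6 members at 0, 3 and 6 h of actinomycin D, as a percentage of the condition's own 0 h mean (points for the 2 libraries, shifted sideways by condition, lines through the means). At 6 h the 8 libraries lay between 9.9% and 12.9% for AURKA and between 82.1% and 98.8% for RRM1.

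Features of the transcripts were compared as a description. The 3′ untranslated region of the main transcript (GENCODE v44) had a median length of 1036 bases in the S-phase members, 614 bases in the mitosis members and 3192 bases in the D-type cyclins, and 1321 bases over the tested protein-coding genes. The word ATTTA, the core of AU-rich elements, was present in 66.7% of S-phase members, 60.9% of mitosis members and 72.7% of all those genes. The longer word TATTTAT was present in 8 members, namely MCM10, CDC6, CDC45, CCNE2, KIF23, CENPE, CCND1 and CCND2, or 19.0% of the S-phase and 8.7% of the mitosis members against 35.3% of all genes. Their siControl half-lifetimes ran from 2.40 h for KIF23 to 15.5 h for CDC45. For 6 members, MCM2, TYMS, CCNE2, PLK1, FOXM1 and CCND1, exons of genes on the opposite strand overlapped more than 10% of the exon bases, and for BUB1B and CCND2 exons on the same strand did, so their counts are less certain.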

How the data were processed

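The authors trimmed reads with Trimmomatic 0.39 and aligned them with HISAT2 2.1.0 to hg38, per the submitters' processing notes, and the study's methods name HTSeq with GENCODE v29 for counting. The library kit kept strand and the alignment used it, but the strand option of the counting is not given in the sources used here. ERCC RNA was added in proportion to total RNA. The deposited values are raw counts per Ensembl gene and ERCC RNA, 1 file per library. Summary lines without a gene (13.6% to 17.1% of all counts) and 45 copies of pseudoautosomal genes on Y were left out. Symbols came from GENCODE v44, and 469 gene rows had none. The members and the gene lists were chosen with earlier results of these data known.

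Tests used edgeR 4.0.16 in R 4.3.3 with quasi-likelihood fits across all genes that reached 1 CPM in 2 or more libraries. Levels were fitted as 12 group means with TMM factors (12 residual degrees of freedom), and slopes with the ERCC total as library size (16 residual degrees of freedom). DESeq2 1.42.0 was an alternative. The fitting code was tested on simulated data. Half-lifetimes were given for genes with mean CPM of at least 1. Values in every library were given for the members called at 0 h with the 2 smallest adjusted p in each class and knockdown, the 3 shortest and 3 longest half-lifetimes in the S-phase and mitosis classes, and the D-type cyclins. CCNE1, CDC6 and the other members with values were named after their values were seen. Of the other lists, the largest called rise and fall per knockdown were named, except 1 gene that is not reported here. Replicate libraries differed by more than counting error (chi-square of 3.24 to 8.51 per degree of freedom).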

Additional observations from a re-analysis of the deposited data

How the results depend on the processing

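Scaling to ERCC reads gave 1 mitosis member higher and 0 S-phase members in siIGF2BP1 at 0 h, 1 S-phase member higher and 0 members lower in siIGF2BP2, and 2 S-phase members higher and 0 lower in siIGF2BP3. In the same order 1.93%, 4.29% and 2.95% of all genes were higher, and 3.01%, 1.29% and 0.632% lower. Averaged over times, ERCC scaling gave 3, 0 and 1 members lower in siIGF2BP1, siIGF2BP2 and siIGF2BP3, against 7.7%, 3.86% and 1.96% of all genes. It gave 13 and 20 S-phase members higher in siIGF2BP2 and siIGF2BP3, where 44.2% and 52.9% of all genes were higher. Between knockdowns it gave 0 members higher in siIGF2BP1 than in siIGF2BP2 and 0 lower in siIGF2BP2 than in siIGF2BP3, against 1.81% and 1.45% of all genes. In siIGF2BP1, 1 S-phase member was higher with DESeq2 and with only the libraries compared, and 2, 2 and 4 members were lower with library-size scaling, with CPM of at least 5 and with only the libraries compared. In the same order, 10.7% and 11.3% of all genes were higher, and 7.9%, 9.71% and 10.4% were lower. In siIGF2BP2, 13 mitosis members were higher and 5 members lower with only the libraries compared, where 9.0% of all genes were higher and 9.74% lower. There, 2 members were lower with library-size scaling, DESeq2, no filter on low counts, CPM of at least 5 or TMM factors from all gene rows, the last chosen after seeing the data. In that order 5.85%, 6.33%, 2.09%, 7.55% and 6.03% of all genes were lower. In siIGF2BP3, 1 member was lower with DESeq2 and with no filter, against 4.88% and 1.55% of all genes. With TMM scaling 6 S-phase members, 15 mitosis members and 1 D-type cyclin fell in siControl, and with library-size scaling 9 S-phase members and 1 D-type cyclin. In these settings 38.7% and 52.3% of all genes fell. The median slope of all genes was −0.88 with ERCC scaling, −0.02 with TMM and −0.34 with library size. With TMM the siControl change over 6 h turned positive for MCM2 (0.46), MCM7 (0.50), RRM1 (0.63), TYMS (0.82), CDC25B (0.12), FOXM1 (0.41), TOP2A (0.16), CCND1 (0.46) and CCND3 (0.39), and with library size for MCM2 (0.14), MCM7 (0.18), RRM1 (0.31), TYMS (0.50), FOXM1 (0.09), CCND1 (0.14) and CCND3 (0.07). The change from 0 to 6 h alone gave 2 members with a slope difference in siIGF2BP1 and 4 in siIGF2BP3, against 0.655% and 1.48% of all genes. The S-phase median half-lifetime from TMM-scaled CPM was 4.14, 4.96, 4.45 and 4.48 h in siControl, siIGF2BP1, siIGF2BP2 and siIGF2BP3, and the mitosis median 9.62, 10.8, 12.3 and 11.0 h. These medians cover the members that still fell. From 0 to 3 h alone the S-phase median was 14.3 h in siControl and 16.1 h in siIGF2BP3, and the mitosis median 6.51 h in siIGF2BP1 and 5.0 h in siIGF2BP2. From 0 to 6 h alone the latter were 4.97 and 5.48 h.

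Without 1 library, at 0 h, S-phase members higher numbered 0 to 1 in siIGF2BP1, 1 to 2 in siIGF2BP2 and 2 to 7 in siIGF2BP3, and members lower 1 to 2, 0 to 0 and 0 to 2. Members lower in siIGF2BP1 than in siIGF2BP2 numbered 5 to 7 (5 without siIGF2BP2 replicate 1) and in siIGF2BP2 than in siIGF2BP3 7 to 12. Slope differences in siIGF2BP3 numbered 0 to 8. S-phase median half-lifetimes ran from 9.96 to 16.1 h in siControl, 14.0 to 17.1 h in siIGF2BP1 and 13.5 to 23.2 h in siIGF2BP3, and mitosis medians from 4.1 to 5.0 h, 5.28 to 6.69 h, 4.59 to 5.3 h and 5.32 to 6.27 h in siControl, siIGF2BP1, siIGF2BP2 and siIGF2BP3. Fewer of all genes were called at 0 h in these fits than with all libraries. The cause of these shifts was not tested.

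Groups share replicate numbers, but deviations of same-numbered libraries correlated with r of −0.042 to 0.181, over 0.1 in 4 of 66 pairs of groups, so the numbers were not taken to pair the libraries. With a replicate block, mitosis members higher at 0 h numbered 8 in siIGF2BP1, 9 in siIGF2BP2 and 17 in siIGF2BP3, and S-phase members higher 0, 3 and 9. In that fit 9.83%, 7.1% and 5.27% of all genes were higher. Libraries with 31843504 to 74252494 gene reads left CCND2, at 21 to 196 reads, the least certain member.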
